A study of Mus musculus with 8 samples.

Results

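Messenger RNA of 33 genes of homologous recombination and the DNA repair and checkpoint pathways that work with it was followed in Lewis lung carcinoma (LLC) cells, a mouse lung tumor line, with and without factor inhibiting HIF (FIH). The 33 genes were taken by symbol from a count table of 53700 genes. All 33 were found, and all 33 were among the 13933 genes with enough reads to be tested. They hold the BRCA1-BRCA2 axis (5 genes), strand exchange factors (5), end resection and the MRN complex (5), the Fanconi anemia core (6) and its ID complex (2), checkpoint kinases and their activator (5), replication protein A (3) and mismatch repair (2).

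The libraries were poly(A)-selected RNA-Seq of 4 groups with 2 libraries each, 8 in all. WT LLC cells and FIH-KO LLC cells were each cultured for 16 hours in normoxia (21% O2) or hypoxia (1% O2). FIH-KO cells were made with a CRISPR guide against Hif1an, the gene of FIH, and grown out from 1 cell, so the knockout and the history of this clone cannot be told apart, and no group carries another treatment. Nothing in the labels says that the libraries of a group came from separate cultures, and p-values then measure only the spread between these libraries. Library totals ran from 14519731 to 18177016 reads assigned to genes. Hif1an read between 82.3 and 90.2 CPM (counts scaled to a common library size) in the 4 WT libraries and between 34.8 and 51.0 CPM in the 4 FIH-KO libraries, without overlap. Of 6 leukocyte and 6 lung epithelial markers, 3 each had no read in any library, and neither list summed to more than 0.280 CPM in a library. The 6 mesenchymal markers summed to between 4816 and 6279 CPM in the 4 WT libraries and between 8787 and 11352 CPM in the 4 FIH-KO libraries, with 3 higher and 0 lower in FIH-KO normoxia and 2 higher and 0 lower in FIH-KO hypoxia. The epithelial markers summed to between 226 and 352 CPM in WT and between 334 and 538 CPM in FIH-KO libraries, with 2 of these 6 at 0 throughout. The part of these markers in the genotype comparisons was not tested.

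Homologous recombination mends double-strand DNA breaks and broken replication forks from an intact sister copy. Nucleases trim the ends to single strands, replication protein A (RPA) coats them, BRCA1 and BRCA2 prepare the coated strands for exchange, and the strand exchange factors help to find and pair the matching strand. The Fanconi anemia proteins unhook DNA crosslinks and pass them on to this pathway, while ATM and ATR are the kinases that sense breaks and stalled forks and signal through CHEK2 and CHEK1. Many of these genes are transcribed most in S phase under E2F factors. FIH is an oxygen-dependent asparagine hydroxylase that blocks the transactivation domain of hypoxia-inducible factors (HIFs), which bind DNA at hypoxia response elements (HREs).

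Because the study turns on HIF, the 250 bases before the start of each gene's canonical transcript (GRCm39, GENCODE vM39) were searched on both strands for the HRE core, ACGTG or GCGTG, and for CCAAT, the box bound by NF-Y. An HRE core was found in 20 of the 33 windows (60.6%), beside 54.1% of the windows of the 11622 tested protein-coding genes and 41.3% of all 21626 protein-coding windows. CCAAT was found in 18 of the 33 (54.5%), beside 36.9% of the tested genes. Matches can share letters, since the palindrome CACGTG holds an HRE core on either strand, other cores can overlap on opposite strands, and ATTGG, the reverse complement of CCAAT, can run into TTGGCGC. The E2F letters TTCCCGC or TTGGCGC were found in 5 windows (Bard1, Brca2, Chek2, Fancm and Rpa2; 15.2%, beside 9.49% of tested genes), and TTTGAA or TTCGAA, a cell cycle homology region, in 3 (9.09%, beside 13.9%). These are matches of letters and not measured binding.

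The stretches below belong to 7 genes whose level changed in both genotype comparisons or in both oxygen comparisons and whose window holds an HRE core. They are printed 5′ to 3′ on the gene's strand, and capitals mark an HRE core or CCAAT in either orientation.
Xrcc3, chr12:111780328-111780560, minus strand: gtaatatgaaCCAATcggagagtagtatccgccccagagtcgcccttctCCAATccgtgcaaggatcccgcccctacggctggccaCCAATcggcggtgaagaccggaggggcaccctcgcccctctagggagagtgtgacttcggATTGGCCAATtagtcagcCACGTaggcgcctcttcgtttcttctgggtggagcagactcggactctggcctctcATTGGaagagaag
Topbp1, chr9:103182282-103182341, plus strand: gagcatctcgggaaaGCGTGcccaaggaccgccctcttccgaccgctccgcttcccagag
Exo1, chr1:175707995-175708045, plus strand: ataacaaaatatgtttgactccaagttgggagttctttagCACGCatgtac
Atr, chr9:95739573-95739601, plus strand: aaagtgggcgggCACGTccgctgtcggct
Chek1, chr9:36638152-36638180, minus strand: taagGCGTGgcaCACGCcccgtgccattt
Fancd2, chr6:113508330-113508358, plus strand: cagtaggattgaCACGTagtggcggatca
Rpa1, chr11:75239505-75239533, minus strand: cgggCACGCactGCGTGaagaagtaccca

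The Xrcc3 stretch ends at the base before the start and carries 6 CCAAT boxes and 1 HRE core. The stretches of Xrcc3, Topbp1 and Exo1 lie outside all annotated exons, and the 4 others lie in exons of other transcripts. Atm and Pms2 also changed in both genotype comparisons, their windows hold CCAAT and no HRE core, and the stretch around the CCAAT nearest the start is shown for contrast. That of Atm lies in an exon of Npat, and that of Pms2 lies in an annotated exon as well.
Atm, chr9:53448288-53448316, minus strand: gtgccacactaaCCAATcgcttccgcggg
Pms2, chr5:143846699-143846727, plus strand: cctttgagttggCCAATcaccggtaaaga

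Levels between genes were compared only per length, as CPM per 1000 bases of the canonical transcript (RPKM). Reads were counted per gene, and the annotated exons of a gene can span more bases. They span 25108 against 9640 bases for Atr and 17855 against 3143 for Fancc, so another length could change the order. In WT normoxia the 33 genes spanned from 2.77 ± 0.451 RPKM (SD, n = 2) for Fancc, a Fanconi anemia core subunit, to 72.4 ± 1.72 RPKM for Topbp1, the activator of ATR. Topbp1 was followed by Rpa3 at 62.3 ± 1.96, Rpa1 at 58.6 ± 0.959 and Msh6 at 56.8 ± 4.59 RPKM. Msh6 overlaps both Rpa1 and Rpa3 within their spread. Rpa2 stood lower, at 31.6 ± 2.20 RPKM, beside Fanca at 31.1 ± 0.396 RPKM. At the low end, Fancg, Rad54b, Palb2, Rad54l and Brca2 stayed under 5 RPKM, between 3.0 and 4.83 RPKM.

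**Figure D1:**
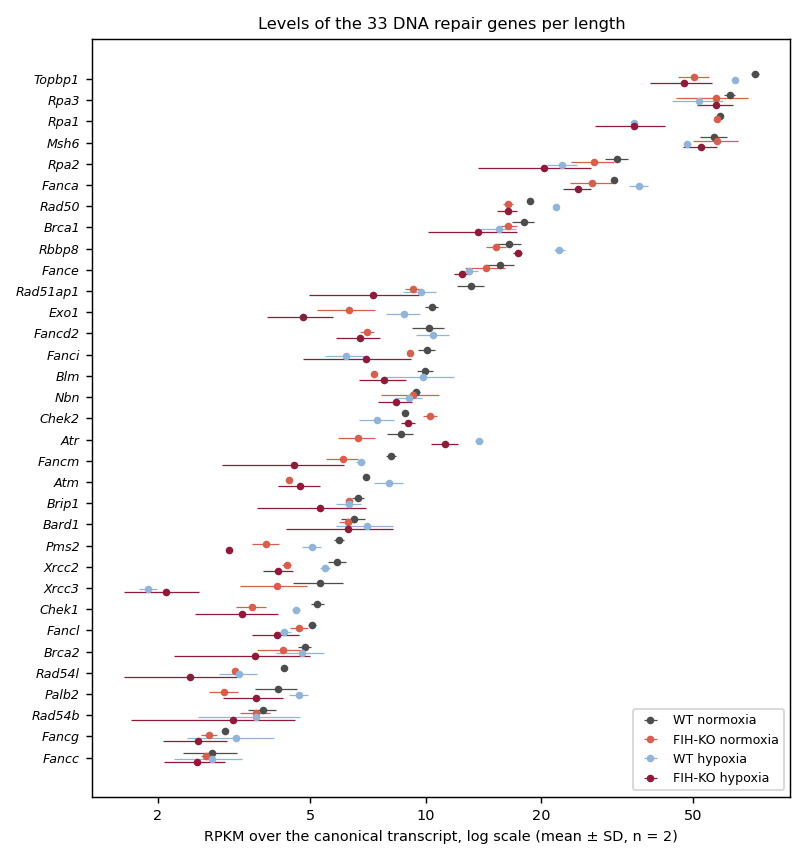
Length-scaled level (RPKM, log axis) of each of the 33 genes in WT normoxia, FIH-KO normoxia, WT hypoxia and FIH-KO hypoxia; points are means and bars the SD of 2 libraries. In normoxia Topbp1, Rpa3, Rpa1 and Msh6 lie at the top and Fancc and Fancg at the bottom, and in hypoxia Xrcc3 lies lowest, at 1.88 RPKM in WT and 2.09 RPKM in FIH-KO cells.

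The genotype comparisons ask how the loss of FIH changed these genes at each oxygen level. In normoxia 7 of the 33 genes were lower in FIH-KO than in WT and 0 were higher (edgeR quasi-likelihood test, adjusted p under 0.05), beside 13.0% lower and 15.2% higher among all genes tested. In hypoxia 10 were lower and 0 higher, beside 13.9% lower and 14.1% higher. Exo1, Atm, Pms2, Chek1, Fancd2 and Topbp1 were lower at both oxygen levels, Atr only passed in normoxia, and Fancm, Fanca, Rad50 and Rbbp8 only passed in hypoxia. The median log2 fold change of the 33 was -0.19 in normoxia and -0.33 in hypoxia, with 31 and 28 of them below 0. Of all 13933 tested genes, 6991 and 7353 were below 0, and their median was -0.00 and -0.03. No gene of the 33 was called for a difference of the FIH-KO effect between the oxygen levels (0 called by edgeR and 0 by DESeq2, beside 0% and 0.251% of all tested genes, and 0 at an unadjusted p under 0.05 in edgeR, beside 6.64%). The estimated differences ran from -0.34 to 0.52 on the log2 scale, and the lack of a call does not show equal effects.

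**Figure D2:**
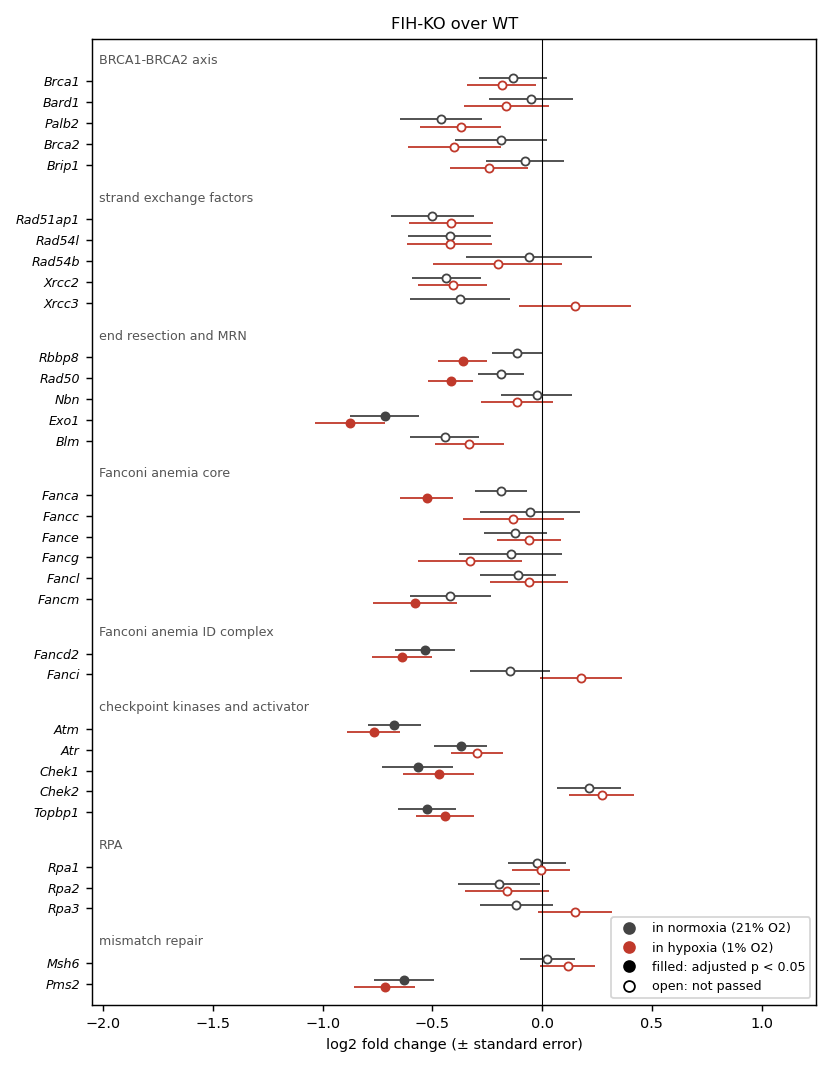
Log2 fold change of FIH-KO over WT with its standard error for the 33 genes by role, in normoxia (grey) and hypoxia (red); filled points passed an adjusted p of 0.05. The filled points all lie left of 0, from -0.36 for Rbbp8 to -0.87 for Exo1 in hypoxia, and Chek2 is an open point right of 0 in both.

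In normoxia the checkpoint genes held the most calls by role, with 4 of 5 lower. In hypoxia 3 of 5 were lower, as were 3 of 5 of the end resection and MRN genes. Atm (ENSMUSG00000034218.17, chr9:53348097-53448236) encodes the kinase that answers double-strand breaks. Its level was 86.9 and 89.0 CPM in WT normoxia against 55.0 and 55.4 CPM in FIH-KO normoxia, and 94.4 and 107 CPM in WT hypoxia against 53.9 and 64.2 CPM in FIH-KO hypoxia. Groups of 2 libraries can part without a call, as those of Brip1 did in normoxia (-0.08 ± 0.18, adjusted p = 0.78). The share of all tested genes that part was not counted. For Atm, all 4 FIH-KO libraries were below all 4 WT libraries. The log2 fold change was -0.67 ± 0.12 (SE; adjusted p = 0.0016) in normoxia and -0.77 ± 0.12 (adjusted p = 0.00077) in hypoxia, and the call held whichever library was left out.

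Topbp1 (ENSMUSG00000032555.11, chr9:103182356-103227631), which switches ATR on at stalled forks, read 389 and 376 CPM in WT normoxia, 249 and 283 CPM in FIH-KO normoxia, 336 and 343 CPM in WT hypoxia and 217 and 283 CPM in FIH-KO hypoxia. Here too every FIH-KO library was below every WT library. The log2 fold change was -0.53 ± 0.13 (adjusted p = 0.011) in normoxia and -0.44 ± 0.13 (adjusted p = 0.026) in hypoxia.

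Chek1 (ENSMUSG00000032113.17, chr9:36614487-36638361), the kinase that ATR signals through, read 44.0 and 46.5 CPM in WT normoxia, 28.6 and 32.5 CPM in FIH-KO normoxia, 39.2 and 40.6 CPM in WT hypoxia and 23.8 and 33.8 CPM in FIH-KO hypoxia. The groups did not overlap, and the changes were -0.57 ± 0.16 on the log2 scale (adjusted p = 0.021) and -0.47 ± 0.16 (adjusted p = 0.047). For both Topbp1 and Chek1 the normoxia call held only without FIH-KO normoxia replicate 2, and the hypoxia call only without FIH-KO hypoxia replicate 2, of the 4 libraries left out in turn.

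Atr (ENSMUSG00000032409.16, chr9:95739650-95835263), the kinase of stalled forks, read 87.7 and 78.3 CPM in WT normoxia and 59.0 and 69.2 CPM in FIH-KO normoxia. The change was -0.37 ± 0.12 (adjusted p = 0.037) and held only without FIH-KO normoxia replicate 2. In hypoxia the libraries again did not overlap, with 131 and 135 CPM in WT and 115 and 102 CPM in FIH-KO, but the log2 fold change of -0.30 ± 0.12 did not pass (adjusted p = 0.082).

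Chek2, the kinase downstream of ATM, was the only checkpoint gene of the 5 with values above WT. It read 20.4 and 20.6 CPM in WT normoxia and 24.5 and 23.1 CPM in FIH-KO normoxia, then 16 and 18.6 CPM in WT hypoxia and 20.2 and 21.5 CPM in FIH-KO hypoxia. Neither the log2 fold change in normoxia (0.21 ± 0.15, adjusted p = 0.30) nor that in hypoxia (0.27 ± 0.15, adjusted p = 0.20) was called. Atm, Atr, Chek1 and Topbp1 all lie on chromosome 9, where the median log2 fold change over tested genes was -0.17 in normoxia and -0.16 in hypoxia. With that median taken off, the 4 genes read between -0.50 for Atm and -0.20 for Atr in normoxia. Whether the chromosome has a part in their values was not tested.

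Among the resection genes, Exo1 (ENSMUSG00000039748.12, chr1:175708143-175741055), the exonuclease that trims ends over long distances and also serves mismatch repair, had the lowest FIH-KO fold change of the 33 at both oxygen levels. It read 78.7 and 83 CPM in WT normoxia, 43.1 and 55.1 CPM in FIH-KO normoxia, 63.4 and 73.5 CPM in WT hypoxia and 32.2 and 42.5 CPM in FIH-KO hypoxia. No FIH-KO library reached a WT library. The log2 fold change was -0.72 ± 0.16 (adjusted p = 0.0053) in normoxia and -0.87 ± 0.16 (adjusted p = 0.0019) in hypoxia, or 1.65-fold and 1.83-fold lower. Only leaving out FIH-KO normoxia replicate 1 ended the normoxia call, and none of the 4 ended the hypoxia call.

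Rad50 (ENSMUSG00000020380.17, chr11:53539837-53598154), the ATPase of the MRN complex that first holds a break, read 114 and 116 CPM in WT hypoxia and 82.3 and 89.6 CPM in FIH-KO hypoxia. It was lower by 0.42 ± 0.10 on the log2 scale (log2 fold change -0.42, adjusted p = 0.010). In normoxia, with 98.1 and 98.4 CPM against 88.0 and 84.5 CPM, the change of -0.19 ± 0.10 did not pass (adjusted p = 0.20). Leaving out WT hypoxia replicate 2 ended the hypoxia call.

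Rbbp8, which encodes CtIP, the MRN cofactor that starts resection, read 82.9 and 78.8 CPM in WT hypoxia and 61.8 and 64.0 CPM in FIH-KO hypoxia (-0.36 ± 0.11, adjusted p = 0.031). That call was lost whichever 1 of the 4 libraries was left out, with fold changes between -0.40 and -0.33. Blm, a helicase that resects and dissolves joined strands, missed the threshold in normoxia at -0.44 ± 0.16 (adjusted p = 0.054), and Nbn, the remaining MRN member here, did not pass in any comparison.

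Of the Fanconi anemia genes, Fancd2 (ENSMUSG00000034023.17, chr6:113508412-113573982), which is ubiquitinated with Fanci at a crosslink, was lower at both oxygen levels. It read 54.6 and 62.5 CPM in WT normoxia, 41.6 and 39.2 CPM in FIH-KO normoxia, 56.0 and 64.4 CPM in WT hypoxia and 35.0 and 42.2 CPM in FIH-KO hypoxia, so that all FIH-KO libraries lay below all WT libraries. FIH-KO normoxia stood -0.54 ± 0.14 from WT on the log2 scale (adjusted p = 0.012), and FIH-KO hypoxia -0.64 ± 0.14 (adjusted p = 0.0049). The normoxia call held in 1 of 4 fits with a library left out and the hypoxia call in 3 of 4, ending without WT hypoxia replicate 2.

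Fanci, its partner, passed in neither genotype comparison and read 26.5 and 31.3 CPM in WT hypoxia against 25.3 and 39.8 CPM in FIH-KO hypoxia, which overlap. Fanca (ENSMUSG00000032815.17, chr8:123993038-124045331), a scaffold of the core complex, read 225 and 243 CPM in WT hypoxia and 153 and 172 CPM in FIH-KO hypoxia, a change of -0.53 ± 0.12 (adjusted p = 0.0064) that ended without WT hypoxia replicate 2. In normoxia it read 200.4 and 204 CPM against 161 and 193 CPM (-0.19 ± 0.12, adjusted p = 0.26). Its difference between the oxygen levels was -0.34 ± 0.17 (unadjusted p = 0.067, adjusted p = 0.76).

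Fancm (ENSMUSG00000055884.9, chr12:65122377-65178832), the translocase that brings the core complex to DNA, read 51.7 and 53.5 CPM in WT hypoxia and 26.4 and 44.0 CPM in FIH-KO hypoxia. The change of -0.58 ± 0.19 (adjusted p = 0.038) held only without FIH-KO hypoxia replicate 2. The 4 other core genes, Fancc, Fance, Fancg and Fancl, had FIH-KO fold changes between -0.33 and -0.06, and none passed.

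In mismatch repair the pair of genes parted. Pms2 (ENSMUSG00000079109.12, chr5:143846412-143870786), an endonuclease of mismatch repair, read 33.2 and 31.9 CPM in WT normoxia, 19.8 and 22.2 CPM in FIH-KO normoxia, 28.8 and 26.6 CPM in WT hypoxia and 16.9 and 16.8 CPM in FIH-KO hypoxia. Every FIH-KO library was below every WT library, at -0.63 ± 0.14 on the log2 scale (adjusted p = 0.0052) for normoxia, with -0.72 ± 0.14 (adjusted p = 0.0028) for hypoxia. The hypoxia call held in all 4 fits with a library left out and the normoxia call in 2 of 4, ending without FIH-KO normoxia replicate 1 or WT normoxia replicate 1. Pms2 overlaps Rsph10b on its own strand, and how reads of the shared stretch were counted is not given in the sources used here. Msh6, which recognises mismatches, read 231 and 259 CPM in WT normoxia against 225 and 272 CPM in FIH-KO normoxia and 211 and 205 CPM against 209 and 242 CPM in hypoxia. These ranges overlap, and the changes of 0.02 ± 0.13 and 0.12 ± 0.13 did not pass.

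The BRCA1-BRCA2 axis held no call in any of the 5 comparisons. Brca1, the ubiquitin ligase that favours resection, read 114 and 126 CPM in WT normoxia, 106 and 114 CPM in FIH-KO normoxia, 95.8 and 112 CPM in WT hypoxia and 74.4 and 108 CPM in FIH-KO hypoxia. Brca2, which prepares the resected strand for exchange, read 63.0 and 66.7 CPM, 51.1 and 62.6 CPM, 57.2 and 70.0 CPM, and 35.0 and 61.3 CPM in the same order. In both genes the low value was FIH-KO hypoxia replicate 1, and its partner lay inside or near the WT range. The FIH-KO fold changes of Brca1 were -0.13 ± 0.16 and -0.18 ± 0.16, and those of Brca2 were -0.19 ± 0.21 and -0.40 ± 0.21 (adjusted p between 0.18 and 0.57 over the 4). Palb2, which bridges BRCA1 and BRCA2, came nearest to the threshold in normoxia at -0.46 ± 0.19 (adjusted p = 0.085).

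The strand exchange factors also held no genotype call. Rad51ap1, which stimulates strand pairing, read 35.0 and 39.2 CPM in WT normoxia and 25.3 and 27.1 CPM in FIH-KO normoxia. The groups did not overlap, but neither did those of Rpa1 in normoxia, whose change was -0.02 ± 0.13. The change of Rad51ap1, -0.50 ± 0.19, missed the threshold (adjusted p = 0.066), as did Xrcc2, a strand exchange factor, at -0.44 ± 0.16 (adjusted p = 0.055) and Rad54l, a motor protein that works on paired strands, at -0.42 ± 0.19 (adjusted p = 0.12). A p-value above the threshold does not show that these genes were equal in the genotypes.

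The oxygen comparisons ask how 16 hours of hypoxia changed the same genes in each genotype. In WT cells 3 genes were lower and 2 higher in hypoxia, beside 15.5% lower and 16.9% higher among all tested genes. In FIH-KO cells 2 were lower and 1 higher, beside 8.0% lower and 8.84% higher. Rpa1 and Xrcc3 were lower and Atr higher in both genotypes, while Fanci (lower) and Rbbp8 (higher) passed only in WT. The median log2 fold change of the 33 was -0.17 in WT and -0.15 in FIH-KO cells. As a check of the exposure, all 15 genes of a HIF target list were higher in WT hypoxia and 14 of 15 in FIH-KO hypoxia.

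**Figure D3:**
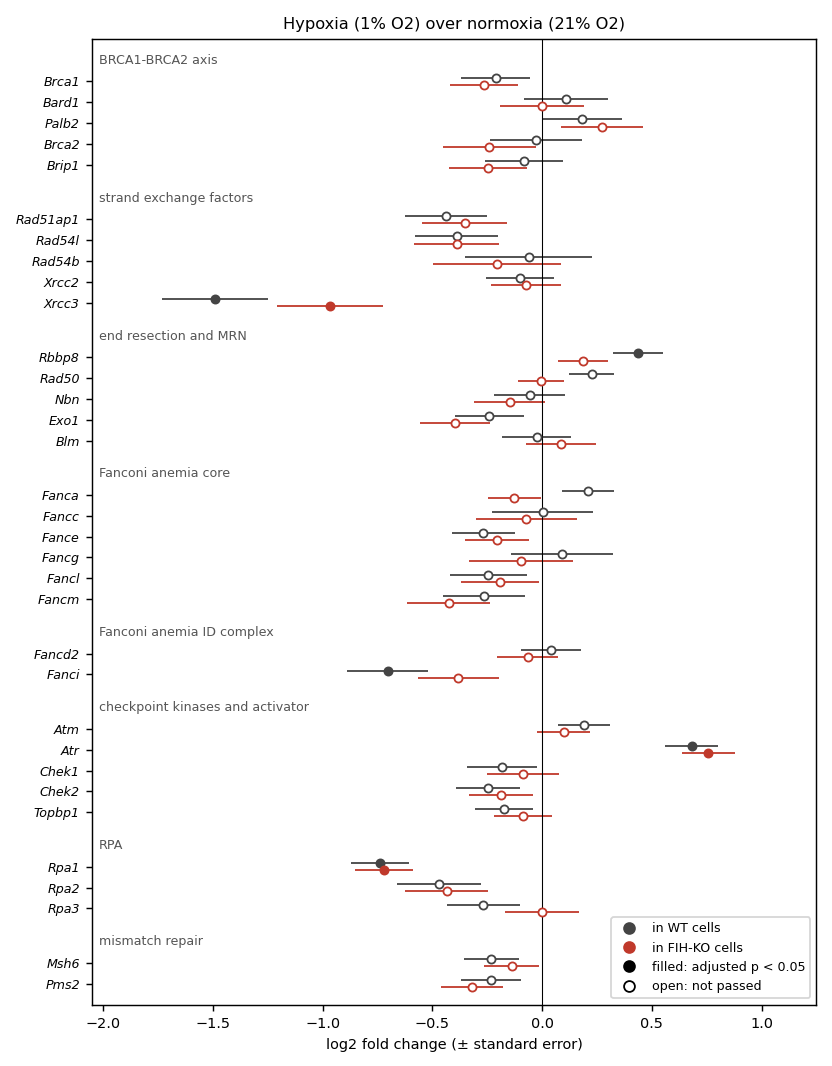
Log2 fold change of hypoxia over normoxia with its standard error for the 33 genes by role, in WT (grey) and FIH-KO cells (red); filled points passed an adjusted p of 0.05. Xrcc3 lies farthest left at -1.49 in WT and -0.97 in FIH-KO, and Atr farthest right at 0.68 and 0.76.

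Xrcc3 (ENSMUSG00000021287.13, chr12:111769626-111780327), which helps to resolve recombination intermediates, read 11.7 and 14.5 CPM in WT normoxia and 4.48 and 4.85 CPM in WT hypoxia. In FIH-KO cells it read 8.69 and 11.5 CPM in normoxia and 4.37 and 5.99 CPM in hypoxia. All 4 hypoxia libraries were below all 4 normoxia libraries. The log2 fold change was -1.49 ± 0.24 (2.81-fold lower, adjusted p = 0.00080) in WT and -0.97 ± 0.24 (1.95-fold lower, adjusted p = 0.018) in FIH-KO cells. The FIH-KO call ended without FIH-KO hypoxia replicate 1 or FIH-KO normoxia replicate 2. Klc1 overlaps Xrcc3 on the opposite strand, the library kit keeps strand, and the strand setting of the counting is not given in the sources used here.

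The other strand exchange genes had fold changes below 0 with hypoxia in both genotypes, between -0.44 and -0.06 in WT, without passing. Rad51ap1 read 25.5 and 29.4 CPM in WT hypoxia, under both WT normoxia libraries (-0.44 ± 0.19, adjusted p = 0.096). Rad54l read 36.4 and 37.2 CPM in WT normoxia and 25.8 and 30.4 CPM in WT hypoxia (-0.39 ± 0.19, adjusted p = 0.14).

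Rpa1 (ENSMUSG00000000751.14, chr11:75188992-75239455), the large subunit of RPA, read 319 and 312 CPM in WT normoxia and 311 and 309.8 CPM in FIH-KO normoxia. In hypoxia it read 188 and 189 CPM in WT and 161 and 216 CPM in FIH-KO. The genotypes overlapped in hypoxia, and no hypoxia library reached a normoxia library. The log2 fold change was -0.74 ± 0.13 (adjusted p = 0.0014) in WT and -0.72 ± 0.13 (adjusted p = 0.0035) in FIH-KO cells, with every left-out library keeping the call. Smyd4 overlaps Rpa1 at its 5′ end on the opposite strand, and its own fold changes with hypoxia were -0.02 ± 0.17 and -0.29 ± 0.17, neither called.

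Rpa2, the middle subunit, read 54.4 and 60.1 CPM in WT normoxia and 43.9 and 38.7 CPM in WT hypoxia (-0.47 ± 0.19, adjusted p = 0.077). Rpa3, the small subunit, read 42.7 and 40.8 CPM against 31.0 and 38.4 CPM in the same groups, and 44.3 and 32.6 CPM against 35.5 and 41.3 CPM in FIH-KO cells, where the groups overlap. Of the 3 subunits of this trimer Rpa1 alone was called, and whether their changes differ from each other was not tested.

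Atr moved the other way. From 87.7 and 78.3 CPM in WT normoxia it was at 131 and 135 CPM in WT hypoxia, and from 59.0 and 69.2 CPM in FIH-KO normoxia at 115 and 102 CPM in FIH-KO hypoxia. The 4 hypoxia libraries lay above the 4 normoxia libraries, and within each oxygen level the WT libraries lay above the FIH-KO libraries. The log2 fold change with hypoxia was 0.68 ± 0.12 (adjusted p = 0.0013) in WT and 0.76 ± 0.12 (adjusted p = 0.0015) in FIH-KO cells, and both calls held whichever library was left out.

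Fanci read 45.2 and 48.8 CPM in WT normoxia and 26.5 and 31.3 CPM in WT hypoxia (-0.70 ± 0.19, adjusted p = 0.013). In FIH-KO cells it read 41.9 and 42.9 CPM in normoxia and 25.3 and 39.8 CPM in hypoxia (-0.38 ± 0.18, adjusted p = 0.18). Rbbp8 rose from 63.0 and 56.6 CPM to 82.9 and 78.8 CPM in WT cells (0.44 ± 0.11, adjusted p = 0.012). In FIH-KO cells Rbbp8 read 57.7 and 52.9 CPM in normoxia and 61.8 and 64.0 CPM in hypoxia (0.19 ± 0.11, adjusted p = 0.30). Both WT calls ended without WT hypoxia replicate 1 or WT normoxia replicate 2, and the differences between the genotypes were 0.32 ± 0.26 for Fanci and -0.25 ± 0.16 for Rbbp8, neither called.

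**Figure D4:**
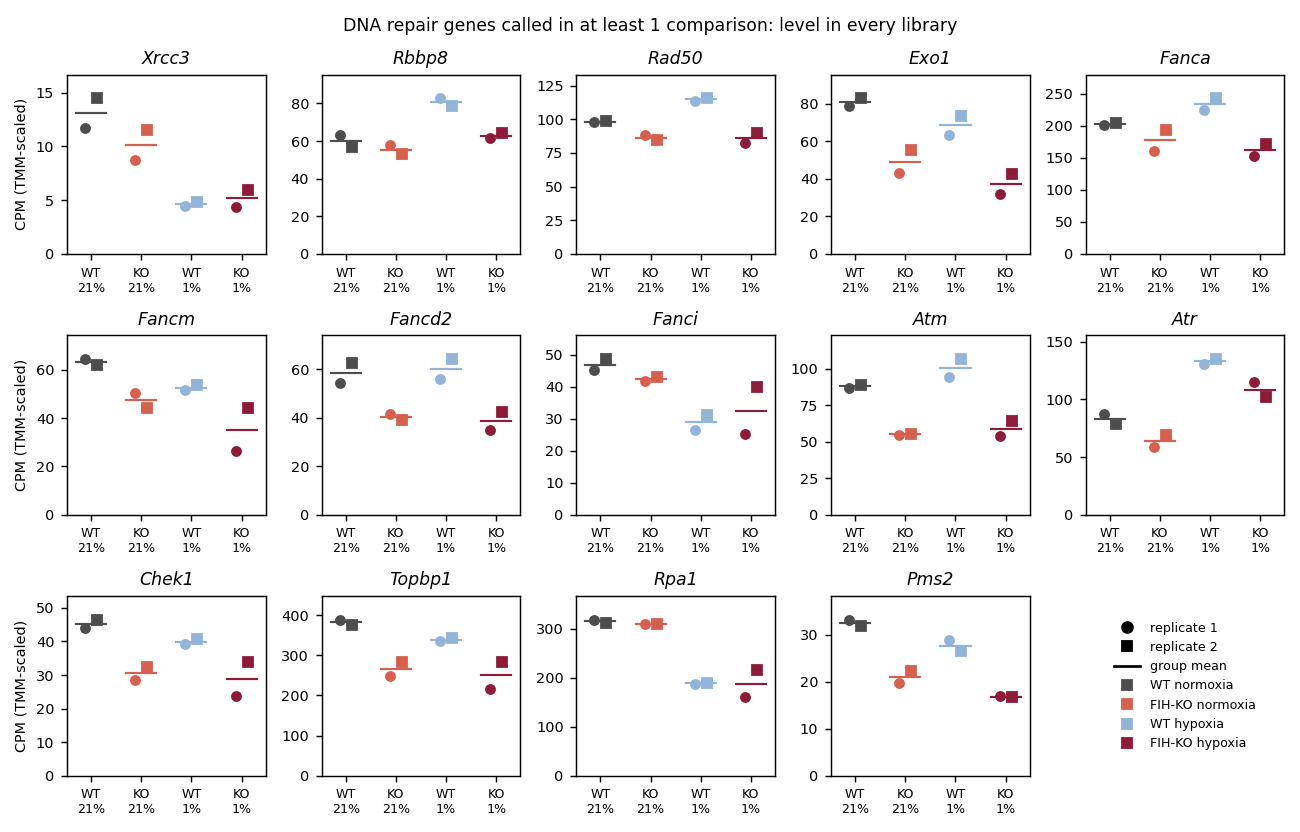
Level (CPM, axes from 0) in every library of the 14 genes called in at least 1 comparison, by genotype and oxygen percentage; circles are replicate 1, squares replicate 2 and lines the group mean. For Atm, Exo1, Topbp1, Fancd2, Chek1 and Pms2 all 4 FIH-KO points lie below all 4 WT points. For Rpa1 and Xrcc3 all 4 hypoxia points lie below all 4 normoxia points. The share of all tested genes that part in these ways was not counted.

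One library stood apart in these genes. FIH-KO hypoxia replicate 1 deviated by a median of -0.44 over the 33 genes, in log2 of CPM plus 0.5, from the mean over the 8 libraries, while FIH-KO hypoxia replicate 2 deviated by -0.00 and the other 6 libraries by between -0.09 and 0.22. The strand exchange factors deviated by -0.72 and -0.10 in the 2 FIH-KO hypoxia libraries, the BRCA1-BRCA2 axis by -0.49 and 0.10, RPA by -0.59 and 0.01, and end resection and MRN by -0.22 and -0.01. Fancm (26.4 against 44.0 CPM), Brca2 (35.0 against 61.3 CPM), Rad54l (16.1 against 25.8 CPM), Brip1, a helicase bound to BRCA1 (28.7 against 45.2 CPM), and Rpa2 (28.4 against 45.6 CPM) show the gap, while Pms2 (16.9 and 16.8 CPM) and Rbbp8 (61.8 and 64.0 CPM) do not.

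A list of S phase genes moved with it. Of its 43 genes 5 are among the 33 (Blm, Brip1, Exo1, Rad51ap1 and Rpa2), and the remaining 38 summed to 2879.9 and 4172 CPM in the FIH-KO hypoxia libraries, 4559.6 and 5378 CPM in FIH-KO normoxia, 4336 and 4274 CPM in WT hypoxia and 6051 and 6359 CPM in WT normoxia. The sum was thus highest in WT normoxia and lowest in FIH-KO hypoxia replicate 1. Of these 38, 12 were lower and 0 higher in FIH-KO in normoxia, 13 and 0 in hypoxia, 22 lower and 1 higher with hypoxia in WT, and 18 and 0 in FIH-KO cells, with medians of -0.34, -0.28, -0.56 and -0.51. A list of 54 G2/M genes also read lower in FIH-KO hypoxia replicate 1 than in replicate 2. Its median deviations were -0.30 and 0.19 and its sums 8716 and 12336 CPM. In the other libraries it summed to between 9932 and 12177 CPM. Of these 54 genes, 14 were lower and 2 higher in FIH-KO normoxia, and 5 lower and 6 higher in FIH-KO hypoxia. Of all tested genes, 13.0% were lower and 15.2% higher in FIH-KO normoxia, and 13.9% and 14.1% in FIH-KO hypoxia. With hypoxia, 15.5% were lower and 16.9% higher in WT cells, and 8.0% and 8.84% in FIH-KO cells. In bulk RNA, fewer cells in a cell cycle phase and less RNA per cell cannot be told apart. The part of S phase or G2/M in the values of the 33 genes was not tested.

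**Figure D5:**
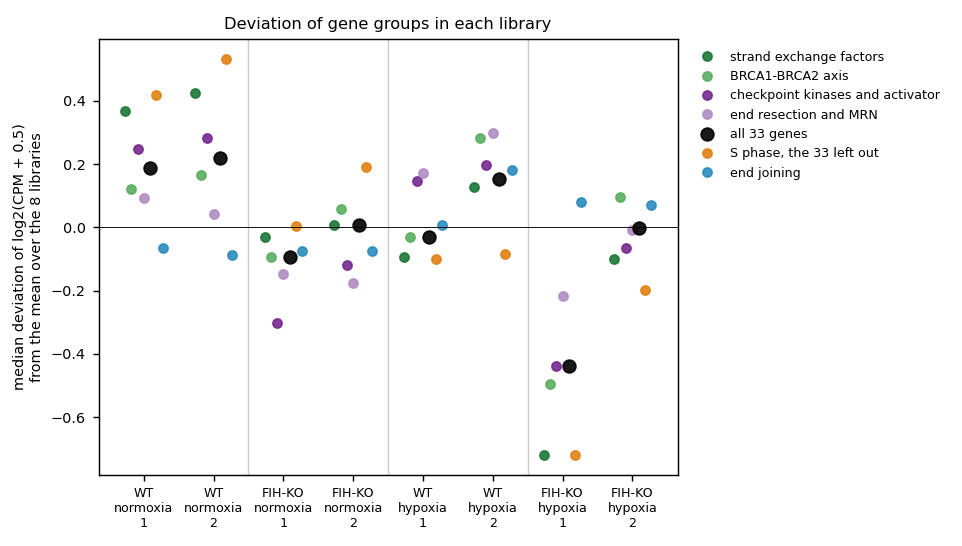
Median deviation, in log2 of CPM plus 0.5, of gene groups in each of the 8 libraries from the mean over all 8 libraries; each point is the median over the genes of 1 group. FIH-KO hypoxia replicate 1 lies lowest for the 33 genes (-0.44) and for the S phase list (-0.72). The median of the end joining genes stays between -0.09 and 0.18 in all libraries, though single genes of that list were called in both directions.

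The counts for FIH-KO hypoxia depend on this pair of libraries. Without FIH-KO hypoxia replicate 1, 6 of the 33 were lower and 1 higher in FIH-KO than in WT hypoxia, and Fanci was the higher one. Without FIH-KO hypoxia replicate 2, 15 were lower, among them Brca1, Brca2, Brip1, Rad51ap1, Rad54l and Rpa2. Over all tested genes these fits called 27.0% and 23.4% in either direction, beside 28.0% with all libraries. With hypoxia in FIH-KO cells, the same choice gave 1 lower and 1 higher (Rpa1 and Atr) or 11 lower and 1 higher, beside 10.7% and 18.5% of all tested genes and 16.8% with all libraries. Atm, Exo1, Pms2, Fanca, Fancd2 and Rad50 were lower in FIH-KO hypoxia, and Rpa1 lower and Atr higher with hypoxia in FIH-KO cells, under either choice. In FIH-KO normoxia, Atm alone remained of the 7 without FIH-KO normoxia replicate 1, and 3 each passed without either WT normoxia library. The share of all tested genes called fell in the same fits, from 28.2% to 13.6% without FIH-KO normoxia replicate 1 and to 12.4% and 15.1% without WT normoxia replicates 1 and 2. Without WT hypoxia replicate 2 the 10 in hypoxia came to 3 and without WT hypoxia replicate 1 to 6, beside 17.1% and 15.7% of all tested genes. The 5 in the WT oxygen comparison came to 3 without WT hypoxia replicate 1 or WT normoxia replicate 2, beside 18.6% and 15.3% of all tested genes and 32.4% with all libraries.

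Of the 33 genes, 10 share a start region with a gene that runs the opposite way and starts within 1000 bases. Atm and Npat, a coactivator of histone genes, start 11 bases apart. Npat read 69.7 and 72.7 CPM in WT normoxia, 50.8 and 51.3 CPM in FIH-KO normoxia, 86.4 and 93.3 CPM in WT hypoxia and 56.3 and 62.4 CPM in FIH-KO hypoxia. It was lower in FIH-KO at both oxygen levels, like Atm, at -0.48 ± 0.11 (adjusted p = 0.0073) and -0.60 ± 0.11 (adjusted p = 0.0020).

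Of the 10 other genes called on genotype, Pms2 and Fancd2 have such a neighbour, and neither neighbour was called. Aimp2, 125 bases from Pms2, stood at -0.30 ± 0.16 on the log2 scale (adjusted p = 0.19) under normoxia, against -0.20 ± 0.16 (adjusted p = 0.40) under hypoxia. Emc3, whose 5′ end overlaps that of Fancd2, had -0.13 ± 0.12 and -0.03 ± 0.12. Zfyve21, 265 bases from Xrcc3, was higher in FIH-KO normoxia (0.51 ± 0.16, adjusted p = 0.033), while Xrcc3 there read -0.37 ± 0.23 (adjusted p = 0.25). With hypoxia in WT cells, where Xrcc3 was lower by 1.49 on the log2 scale (log2 fold change -1.49), Zfyve21 had -0.16 ± 0.16 (adjusted p = 0.48). D6Wsu163e, 326 bases from Rad51ap1, was lower with hypoxia in WT (-0.96 ± 0.21, adjusted p = 0.0045) and FIH-KO cells (-0.67 ± 0.21, adjusted p = 0.045), and Rad51ap1 did not pass in either.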

How the data were processed

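The study's RNA-Seq libraries were made from poly(A) RNA with a stranded kit and sequenced in pairs. The authors aligned reads to GRCm39 with STAR and made gene counts with HTSeq; the deposited table holds these raw counts, not normalized. The submitters' processing notes also name DESeq2, and the strand and overlap settings of the counting are not given in the sources used here. All 8 value columns carried a sample name.

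The 33 genes, their roles and the other lists were chosen with earlier results of these data known. Genes kept by filterByExpr (13933) were fitted with edgeR 4.0.16 under R 4.3.3 (TMM factors, 4 group means over all 8 libraries, quasi-likelihood test, Benjamini-Hochberg adjustment over all tested genes, threshold 0.05). CPM are scaled by TMM. Alternatives were DESeq2 1.42.0, RLE and upper-quartile scaling, no filter beyond 1 read, at least 10 counts in every library, a replicate block, only the libraries compared, and each library left out; the library left alone in its group is then assumed to vary like the others. Replicates varied by 11.7% (edgeR's common biological coefficient of variation). The fit was tested on counts simulated for FIH-KO against WT in normoxia (13933 genes). There edgeR called 70 of 100 genes changed by 1 on the log2 scale, 17 of 100 changed by 0.5 and 3 of 13733 unchanged ones. Smaller changes were thus often missed in the simulation. Its changed genes were drawn from all tested genes and were far fewer than the 28.2% called in the real comparison. The rates therefore do not give the share missed among the 33 genes, which held 70 to 6352 reads a gene and library. Genes of the 33 called in any comparison are given in every library. Genes of other lists are named only among the 3 largest called changes of their list with a mean of at least 50 counts. Hif1an, Mre11a and opposite neighbours are named apart from this rule. Sequences and exons come from GRCm39 with GENCODE vM39, in which all 33 genes were matched by identifier. Sequence of chromosome 18 and some genes of the other lists are not reported here.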

Additional observations from a re-analysis of the deposited data

How the results depend on the processing

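Among the 33 genes, DESeq2, RLE and upper-quartile scaling, no filter, the stricter filter and the replicate block each kept the count called in all 5 comparisons within 1.5 times and the median log2 fold change within the spread of replicates. Fits on only the libraries compared, with the spread estimated from those libraries alone, gave 12 genes (FIH-KO against WT in normoxia), 6 (in hypoxia) and 8 (hypoxia in WT: 6 lower, 2 higher), beside 33.03%, 21.2% and 40.6% of all tested genes (28.2%, 28.0% and 32.4% with all libraries). Replicates were not equally close in every group. The correlation of log counts between the libraries of a group ran from 0.985 in FIH-KO hypoxia to 0.992 in WT normoxia. The part of this in the counts was not tested. With each library left out in turn, the count ranged from 1 to 6 in FIH-KO normoxia, from 3 to 15 in FIH-KO hypoxia, from 3 to 5 with hypoxia in WT, from 2 to 12 with hypoxia in FIH-KO, and stayed at 0 for the difference. The median ranged from -0.32 to -0.19, from -0.52 to -0.12, from -0.20 to -0.14, from -0.30 to 0.02 and, for the difference, from -0.23 to 0.16. Some fold changes named singly, none called, changed sign with a library left out: Msh6 in FIH-KO normoxia (-0.12 without FIH-KO normoxia replicate 2 and -0.057 without WT normoxia replicate 1, in a range up to 0.15), Brca1 in FIH-KO hypoxia (0.061 without FIH-KO hypoxia replicate 1, in a range down to -0.48) and the difference between genotypes of Fanci (from -0.040 to 0.61). The cause was not tested.

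Replicate numbers were not shown to pair samples: correlations of same-numbered deviations ran from -0.010 to 0.193 over the 6 pairs of groups. With the replicate block 9 genes were called in FIH-KO normoxia, 10 in FIH-KO hypoxia, 5 with hypoxia in WT, 4 with hypoxia in FIH-KO and 0 for the difference, beside 29.3%, 29.0%, 32.96%, 17.8% and 0.036% of all tested genes.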

Other observations

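Other DNA repair genes, from lists that hold none of the 33, were counted in the same fits. Of 111 such genes, 17 were lower and 7 higher in FIH-KO normoxia, 24 lower and 7 higher in FIH-KO hypoxia, 23 lower and 6 higher with hypoxia in WT, and 14 lower and 2 higher with hypoxia in FIH-KO cells, with medians of -0.14, -0.14, -0.08 and -0.07. In the same order, 13.0%, 13.9%, 15.5% and 8.0% of all tested genes were lower, and 15.2%, 14.1%, 16.9% and 8.84% were higher. Dna2, a resection nuclease like Exo1, was lower with hypoxia in both genotypes, by log2 fold changes of -1.16 ± 0.16 (edgeR, adjusted p = 0.00034) and -1.41 ± 0.17 (adjusted p = 0.00026), and in FIH-KO hypoxia (-0.64 ± 0.17, adjusted p = 0.017). Rad52, an annealing factor, rose with hypoxia in WT (0.79 ± 0.20, adjusted p = 0.0096) and was lower in FIH-KO than in WT hypoxia (-0.72 ± 0.20, adjusted p = 0.017).

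Cdc25a, the phosphatase that CHEK1 restrains, read 62.2 and 59.4 CPM in WT normoxia against 25.3 and 34.4 CPM in FIH-KO normoxia (-1.02 ± 0.17, adjusted p = 0.0011). In end joining, which needs no sister copy, 2 of 10 genes were higher and 2 lower in FIH-KO normoxia, beside 15.2% higher and 13.0% lower among all tested genes. Prkdc, its DNA-dependent kinase, was higher there (0.61 ± 0.14, adjusted p = 0.0069), with 92.7 and 87.1 CPM against 54.8 and 63.3 CPM in WT.

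By pathway, the numbers lower and higher in FIH-KO hypoxia were 9 and 2 of 37 other homologous recombination genes, 1 and 2 of 13 other Fanconi anemia genes, 5 and 1 of 13 other checkpoint genes, 1 and 0 of 5 other mismatch repair genes, 3 and 1 of 10 end joining genes, 3 and 0 of 18 base excision repair genes and 2 and 1 of 16 nucleotide excision repair genes. Among all tested genes, 13.9% were lower and 14.1% higher in that comparison. Among 19 tested E2F, DREAM and MuvB factors, which time S phase and mitotic transcription, 7 were lower and 2 higher in FIH-KO normoxia and 5 lower and 0 higher in FIH-KO hypoxia, beside 13.0% and 13.9% lower among all tested genes. E2f5 was lower at both oxygen levels (-0.95 ± 0.20, adjusted p = 0.0038, and -1.13 ± 0.19, adjusted p = 0.0013).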
